A study of Mus musculus with 6 samples.

Results

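The cells described here were the 92 cells that the authors named mySC, out of 364 cells of mouse sciatic nerve in 5 clusters. Membership was read from the deposited cell table and rests on the authors' own clustering, which a column name ties to integrated data. The labels do not spell out mySC, and the markers Mbp and Pmp22, both genes of compact myelin, were used to describe it. Of the 92 cells, 78 carried myelin UMIs and were not led by markers of a cell type outside the Schwann lineage. The other 14 were led by such markers. Lists of other Schwann genes were not weighed in this split. UMIs are unique molecular identifiers, 1 for each captured RNA molecule. The 78 are called myelin-positive cells below.

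The nerves came from 23-week-old C57BL6/J mice on 1 of 2 diets, written SD and HFD in the labels, where HFD is the usual short form of high-fat diet. The nerves were digested with trypsin and collagenase II, and cells were pulled out on beads that bind O4, a sulfatide antigen on the surface of Schwann cells. Both diets share this strain, age, tissue, digestion and bead step, no gene was altered, and the labels name no sex, length of feeding or number of animals per library. Libraries were 10x 3′ libraries, and cells of 5 libraries were analysed: SD replicates 1 to 3 (201 cells) and HFD replicates 1 and 2 (163 cells). HFD replicate 3 was not analysed here. Libraries held 37744 to 349450 UMIs in all, with library medians of 330.5 to 6608 UMIs per cell, and no barcode was shared between libraries. Folder names in the deposited library key carry 2 project numbers, project 1 with SD replicates 1 and 2 and HFD replicate 1, and project 2 with SD replicate 3 and HFD replicate 2, so within-project differences are given beside the pooled ones. Where the labels do not say that replicates were separate animals, p-values measure only the spread between these libraries, which may be technical.

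Myelinating Schwann cells wrap peripheral axons in many layers of their own membrane. Mbp encodes a basic protein that joins the inner faces of those layers, and Pmp22 a membrane protein of the same sheath. Prx and Mag act at the non-compact membrane and at the contact with the axon, and Sox10 and Egr2 are the transcription factors that set and keep the myelinating state. Cholesterol, fatty acids and galactolipids make up most of the membrane that they build. SCP, another of the authors' clusters with 60 cells, also carried the compact myelin genes and serves as the comparison below. As the authors defined both clusters on these cells, every value of mySC against SCP is a description with no test.

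The 14 cells of another type were separated first. A cell was counted there when 1 list of markers of a cell type outside the Schwann lineage had at least 5 UMIs in it and more UMIs than the 22 myelin genes together. This took 7 cells with macrophage genes, 3 with neutrophil genes, and 1 each with mast cell, erythroid, endothelial and adipocyte genes. No cell was without both. Cells of another type had 0 to 9 myelin UMIs and myelin-positive cells 2 to 331, so the ranges overlapped, and no list that placed a cell among the former had under 10 UMIs in it. Near the limit, 5 myelin-positive cells had under 5 myelin UMIs and 7 had at least 5 UMIs of a list outside the Schwann lineage.

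These 14 cells were few but deep, and they set much of the summed signal. They made up 15.2% of mySC cells and 63.6% of mySC UMIs. SD replicate 1 had 4 of them, SD replicate 2 had 1, SD replicate 3 had none, HFD replicate 1 had 5 of its 8 mySC cells and HFD replicate 2 had 4 of its 16. They held 39.9% of the mySC UMIs of SD replicate 1, 1.37% of SD replicate 2, 92.6% of HFD replicate 1 and 78.2% of HFD replicate 2. The erythroid cell, from HFD replicate 1, had 24932 UMIs, of which 93.1% were of the erythroid list, led by the beta-globin gene Hbb-bs with 9282 UMIs and the alpha-globin gene Hba-a1 with 6354.

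The 3 cells with neutrophil genes all came from the HFD libraries. They had 6076, 6149 and 6605 UMIs, and S100a9, which encodes a calcium-binding protein abundant in neutrophils, had 779, 1015 and 342 UMIs in them. Its partner S100a8 had 587, 692 and 164 UMIs. The 7 cells with macrophage genes ranged from 819 to 20329 UMIs. The deepest 4 of them were led by Cd74, the invariant chain of MHC class II, with 132, 336, 160 and 311 UMIs, and the others by the complement gene C1qa or the lysozyme gene Lyz2. In the cells with 13256, 15445 and 20329 UMIs, Cd74 made up 336 of 366, 160 of 208 and 311 of 352 list UMIs. Only 5, 7 and 8 of the 15 list members were counted in them, so their placement rests mostly on Cd74. The mast cell, from SD replicate 1, had 90 UMIs of the protease gene Mcpt4 and 69 of Cpa3. The endothelial cell (309 UMIs, with 6 of Ly6c1) and the adipocyte cell (203 UMIs, with 6 of Fabp4 and 6 of Car3) were as shallow as the myelin-positive cells.

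**Figure D1:**
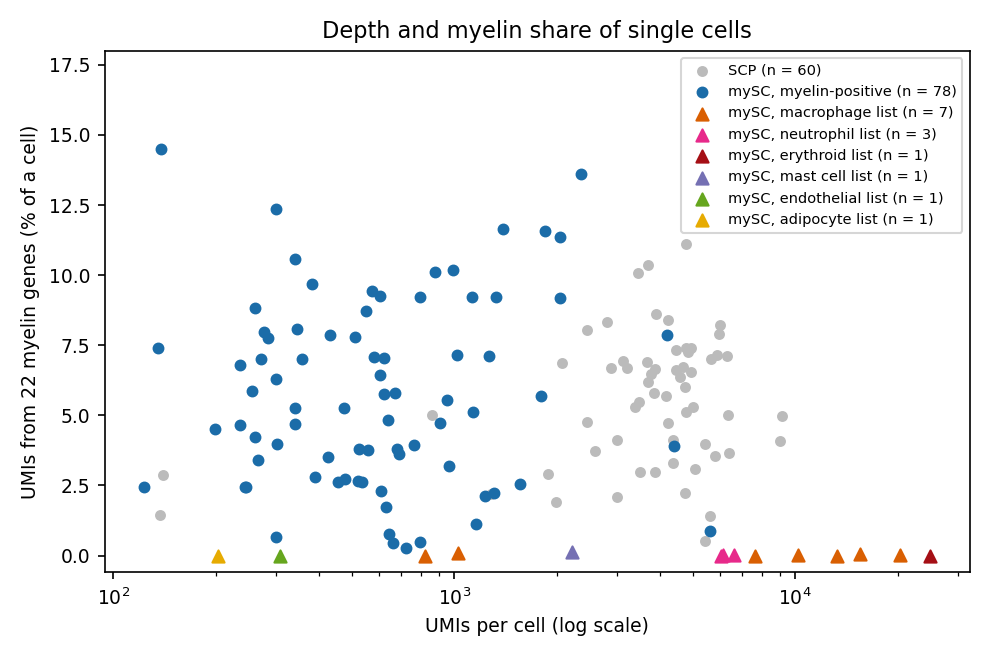
Each point is 1 cell, with its UMIs on a log axis against the percent of them that came from the 22 myelin genes. Myelin-positive mySC cells had a median of 592 UMIs against 4230 in SCP at much the same myelin percent (medians 5.41% and 5.75%), and the 14 mySC cells of another type lie on or near the zero line, 7 of them with a myelin UMI and none above 0.135%.

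The myelin-positive cells were shallow cells with a myelin share like that of the deep SCP cells. They had a median of 592 UMIs (123 to 5639) and 265.5 genes, against 4230 UMIs and 1744.5 genes in SCP, and 72 of the 78 had under 2000 UMIs. Library medians were 761, 432 and 301 UMIs in SD replicates 1, 2 and 3 and 2048 and 546 UMIs in HFD replicates 1 and 2. The highest of these rests on 3 cells. Of their UMIs, 5.41% (median over cells) came from the 22 myelin genes, against 5.75% in SCP and 0.0094% in the authors' macrophage cluster. By library the medians were 5.67%, 5.80% and 6.31% on SD and 11.38% and 4.06% on HFD. Depth and myelin share were unrelated among the 78 cells (Spearman rho 0.03, as a description, since both share the cell's total).

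The compact myelin genes Mbp and Pmp22 were among the Schwann genes most often carried. Mbp was counted in 69 of the 78 cells, which is 19 of 21, 30 of 35 and 6 of 7 cells of the SD libraries and 3 of 3 and 11 of 12 of the HFD libraries. Pmp22 was counted in 63 cells (19, 29, 5, 3 and 7 in the same order). Every library therefore had both marker genes in most of its myelin-positive cells. In the authors' macrophage cluster, a cell type that should lack both, Mbp was counted in 19 of 143 cells and Pmp22 in 53, at a median of 1064 UMIs per cell, which is deeper than the myelin-positive cells. The source of those UMIs was not tested.

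Other myelin and Schwann genes were carried by fewer of the shallow cells. Mal, a lipid raft protein of myelin, was counted in 43, Cnp, the enzyme CNPase of the myelin cytoplasm, in 35, and Pmp2, a fatty acid-binding protein of some myelin sheaths, in 11. Of the non-compact and axoglial list, Prx was found in 46 cells, the adhesion gene Cadm4, which binds axonal partners, in 36, the dystroglycan gene Dag1 in 25, and Mag in 7. Of the Schwann lineage list, Cryab, a small heat shock protein abundant in myelin, was found in 51 cells and the calcium-binding marker S100b in 35. The transcription factor genes were sparse, Sox10 in 12 cells and Egr2 in 6, as was the neuregulin receptor gene Erbb3 in 6.

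Outside the myelin lists, the most often carried genes were not Schwann-specific. Gm42418 was counted in all 78 cells, Cmss1 in 76, Lars2 in 75, Gphn in 73, Camk1d in 71 and Cdk8 in 70. The iron storage gene Fth1 was found in 63, the matrix gene Sparc and the stress-responsive Schwann gene Ndrg1 in 60 each, and the large scaffold gene Ahnak in 50.

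The rule removes cells in which markers of another cell type lead, and the 78 cells that remained still held some of these markers. The neutrophil, mast cell, T and NK cell, skeletal muscle, adipocyte and oligodendrocyte lists were at 0 in all 78, which allows a share of up to 3.85% of cells with a UMI, a limit for counting error only. The macrophage list reached 16 UMIs in 8 cells, with a level of 0 to 422 CPM (UMIs of a gene or list per 1000000 UMIs of the cells) by library. The erythroid list had 10 UMIs in 8 cells, the endothelial list 16 in 10, the pericyte and smooth muscle list 22 in 12, and the B and plasma cell list 1 in 1. The fibroblast list was the most abundant of them, with 82 UMIs in 34 cells. It was at 1217 ± 599 CPM (SD, n = 5 libraries) against 669 ± 273 CPM in SCP and 237 ± 79.9 CPM in macrophages, and was above SCP in 5 of 5 libraries. Its counted members were the collagen genes Col1a2 in 23 cells, Col14a1 in 10, Col1a1 in 4 and Col3a1 in 1, and the actin-severing gene Gsn in 15, while Dcn, Lum, Pdgfra and Mgp were at 0. Col1a2 was expected in 11.1% of myelin-positive and 7.70% of SCP cells at the depth of 200 UMIs per cell used below. The non-myelinating and repair list had 82 UMIs in 14 cells, with Scn7a and Chl1 in 4 cells each and Ngfr at 0.

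Pooled over libraries, the mix of myelin transcripts differed between the myelin-positive cells and SCP. Of the 3876 myelin UMIs of the 78 cells, 22.5% were Pmp22 (95% Clopper-Pearson interval 21.2 to 23.8, counting error only), 12.4% Mbp and 3.92% Prx. In SCP the shares were 13.9% for Pmp22, 6.01% for Mbp and 2.81% for Prx. The mix also varied by library. Mbp was 10.4% and 12.4% of myelin UMIs in SD replicates 1 and 2, 53.2% in SD replicate 3, and 2.30% and 10.9% in HFD replicates 1 and 2. In SD replicate 3, 1 cell held 103 of the 117 Mbp UMIs. That cell had 1323 UMIs, no Pmp22, and 48.3% of its UMIs were Gm42418.

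Because the clusters differed in depth, genes were compared as the share of cells expected to carry a UMI when 200 UMIs are drawn from each cell, leaving out 4 myelin-positive and 2 SCP cells with fewer. At this depth Mbp was expected in 64.8% of myelin-positive cells and 47.7% of SCP cells, and was higher in 5 of 5 libraries. Pmp22 was expected in 70.6% and 71.2%, with 3 libraries lower and 2 higher. In macrophages the same shares were 2.48% and 5.54%. Prx was at 34.3% against 27.2% in SCP and higher in 4 of 5 libraries.

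S100b and Cadm4 were expected in more of the myelin-positive cells at equal depth. S100b was expected in 21.1% of them and 4.29% of SCP cells, and without thinning it was found in 35 of 78 and 27 of 60 cells, or 44.9% and 45.0%, with the SCP cells the deeper ones. By library S100b was at 19.5%, 20.8%, 32.6%, 11.1% and 21.9% in the myelin-positive cells of SD replicates 1, 2 and 3 and HFD replicates 1 and 2, each above the SCP value of the same library, the highest of which was 5.9%. Cadm4 was expected in 18.9% against 6.17% and was higher in 5 of 5 libraries. Pmp2 was expected in 6.20% against 0.058%, and was found in 11 of 78 cells against 1 of 60. Sox10, at 3.68% against 7.53%, was low in both.

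**Figure D2:**
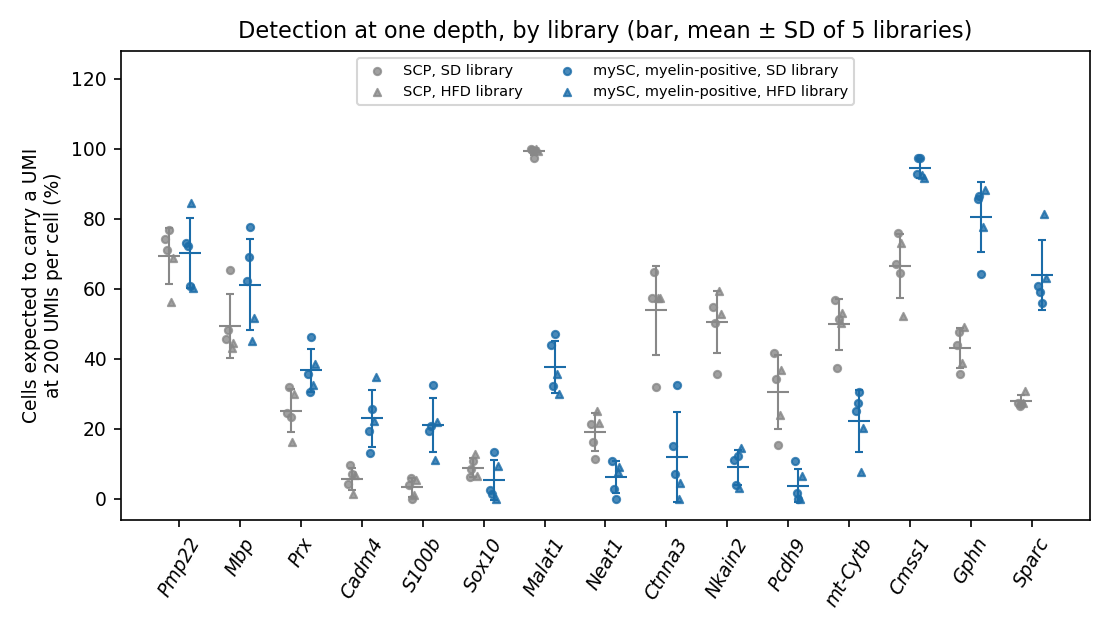
For 15 genes, the share of cells expected to carry a UMI at 200 UMIs per cell is plotted for SCP (grey) and myelin-positive mySC cells (blue), with SD libraries as circles, HFD libraries as triangles and the mean ± SD of the 5 libraries as bars. Mbp, Cadm4, S100b, Cmss1, Gphn and Sparc lie higher in the myelin-positive cells of every library, and Malat1, Nkain2, Pcdh9 and mt-Cytb lower.

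The nuclear RNA Malat1, a long non-coding RNA retained in nuclei (chromosome 19, 5795690 to 5802672, minus strand, mm10, GENCODE), was low in the myelin-positive cells. It was found in 39 of 78 cells against 60 of 60 SCP cells and 97 of 143 macrophages. In repairSC, another of the authors' clusters with a median of 261 UMIs per cell, Malat1 was found in 7 of 45 cells. Among the myelin-positive cells, those with a Malat1 UMI numbered 13 of 21, 15 of 35 and 4 of 7 on SD and 2 of 3 and 5 of 12 on HFD. Malat1 made up a median of 0.05% of the UMIs of myelin-positive cells against 4.43% in SCP. At 200 UMIs per cell it was expected in 36.6% of myelin-positive cells, 99.4% of SCP cells and 59.0% of macrophages, and by library it ranged from 29.9% to 47.0% in the myelin-positive cells and from 97.5% to 99.9% in SCP, with no overlap. Neat1, another RNA retained in the nucleus, was expected in 5.85% against 19.8%, and was lower in 5 of 5 libraries.

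Low Malat1 was not limited to the shallowest cells. Malat1 was found in 6 of 16 myelin-positive cells under 300 UMIs, 11 of 23 from 300 to 600, 13 of 25 from 600 to 1200 and 9 of 14 above that, where the share expected at 200 UMIs was 33.3%, 36.7%, 34.1% and 43.8%. A cell of HFD replicate 2 with 4400 UMIs, 41 of Pmp22 and 23 of Mbp, had no Malat1 UMI. Another deep cell, from SD replicate 1 with 4208 UMIs and 74 of Pmp22, had 244. Depth and the Malat1 percent had a Spearman rho of 0.05 over the 78 cells.

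Gm42418 moved the other way. It is a non-coding gene model (chromosome 17, 39846958 to 39848788, plus strand) that lies over a ribosomal RNA repeat and overlaps another unnamed model on the opposite strand. It was a median of 18.55% of the UMIs of myelin-positive cells, from 1.97% to 48.3%, against 4.86% in SCP and 4.83% in macrophages. Library medians were 22.91%, 18.87%, 11.07%, 17.81% and 13.64% in the order used above, against 4.27% to 6.11% in SCP. Cells rich in Gm42418 were also rich in Cmss1, Lars2, Gphn, Camk1d and Cdk8, whose summed percent followed that of Gm42418 with a Spearman rho of 0.77 over the 78 cells and 0.56 over 60 SCP cells. Cells rich in Gm42418 had on balance a lower percent of cytosolic ribosomal protein UMIs (rho -0.35) and of Malat1 (rho -0.30), and its percent was unrelated to the myelin percent (rho -0.03). All these percents share each cell's total. Without these 6 transcripts the median myelin percent was 7.81% in the myelin-positive cells and 6.24% in SCP.

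**Figure D3:**
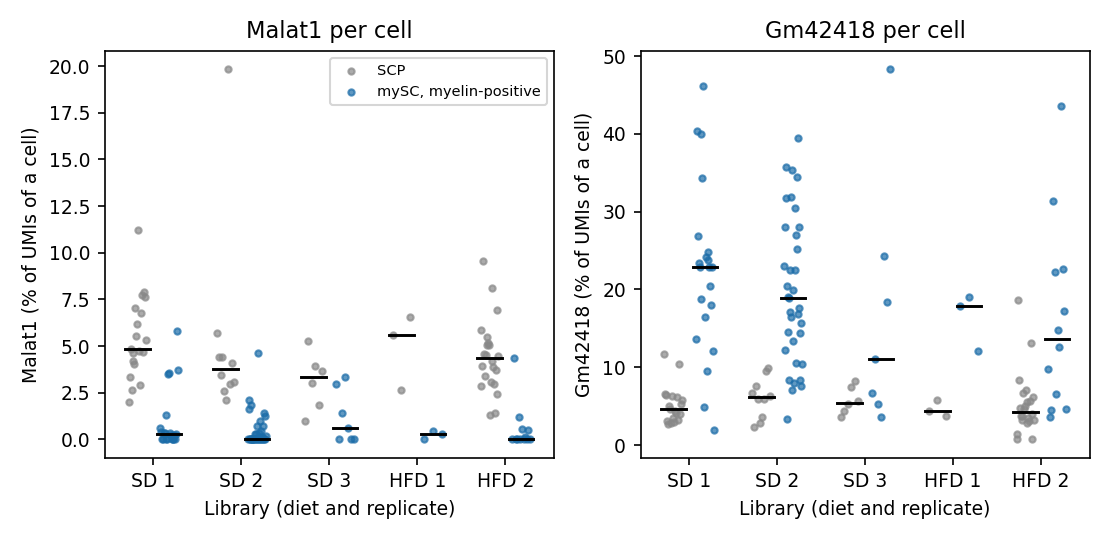
Each point is 1 cell, with Malat1 (left) and Gm42418 (right) as percent of its UMIs by library, SCP in grey and myelin-positive mySC cells in blue, and black lines at the medians. In every library the median of the myelin-positive cells lies below that of SCP for Malat1 and above it for Gm42418.

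The 10 genes per direction with the largest differences from SCP at equal depth were ranked over all 92 mySC cells, and their values are given here for the myelin-positive cells. On the lower side stood the adherens junction gene Ctnna3 (chromosome 10, 63430098 to 65003667), expected in 10.9% against 56.1%, the sodium pump-interacting gene Nkain2 in 7.92% against 51.5%, the protocadherin gene Pcdh9 in 4.70% against 35.1% and the sorting receptor gene Sorcs1 in 2.20% against 30.3%. Ctnna3 was lower in 4 of 5 libraries, at 32.6% against 31.9% in SD replicate 3, and Nkain2 in 5 of 5. The RNA-binding gene Celf2, the dystrophin relative Utrn, mt-Cytb and Malat1 were also among the 10 largest. On the higher side stood Gphn at 84.3% against 45.3%, Lars2 at 80.8% against 42.8%, Camk1d at 86.1% against 49.7%, Cmss1 at 95.3% against 63.5% and Cdk8 at 77.2% against 47.8%. Sparc was at 60.7% against 28.4%, Fth1 at 57.2% against 39.3%, the intermediate filament gene Vim at 32.5% against 13.3% and Ahnak at 37.7% against 19.0%. An unnamed gene model was also among the 10. The fibroblast list, higher in the myelin-positive cells as given above, moved with these genes, and its part in their differences was not tested.

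Leaving Gm42418 and those 5 transcripts out of every cell, a choice made after seeing the data, kept these directions. With 66 myelin-positive and 58 SCP cells still at or above 200 UMIs, Malat1 was at 44.3% against 99.6%, Mbp at 70.1% against 50.2%, S100b at 28.8% against 4.58%, Ctnna3 at 13.0% against 58.6% and Sparc at 68.0% against 30.1%.

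The lower genes were often long ones. The span of a gene is the distance from its annotated start to its end, introns included. Among 455 genes with a mean expected share of at least 5% in the 2 clusters and 1 annotated location, the myelin-positive cells were lower than SCP in 51.6% of 161 genes under 10 kb, 42.0% of 112 genes of 10 to 50 kb, 63.0% of 81 genes of 50 to 150 kb and 86.1% of 101 genes of 150 kb or more. The median difference in that last group was -7.29 percentage points. In single libraries the share of those 101 genes that were lower ran from 75.2% in SD replicate 3 to 89.1% in HFD replicate 2. Without Gm42418 and the 5 transcripts it was 87.8% of 98 genes, against 33.8% of 160 genes under 10 kb. The Spearman rho of span and difference was -0.40 across the 455 genes, which are not independent replicates. Gphn (458 kb), Camk1d (421 kb) and Cmss1 (305 kb) were long genes with the opposite direction.

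**Figure D4:**
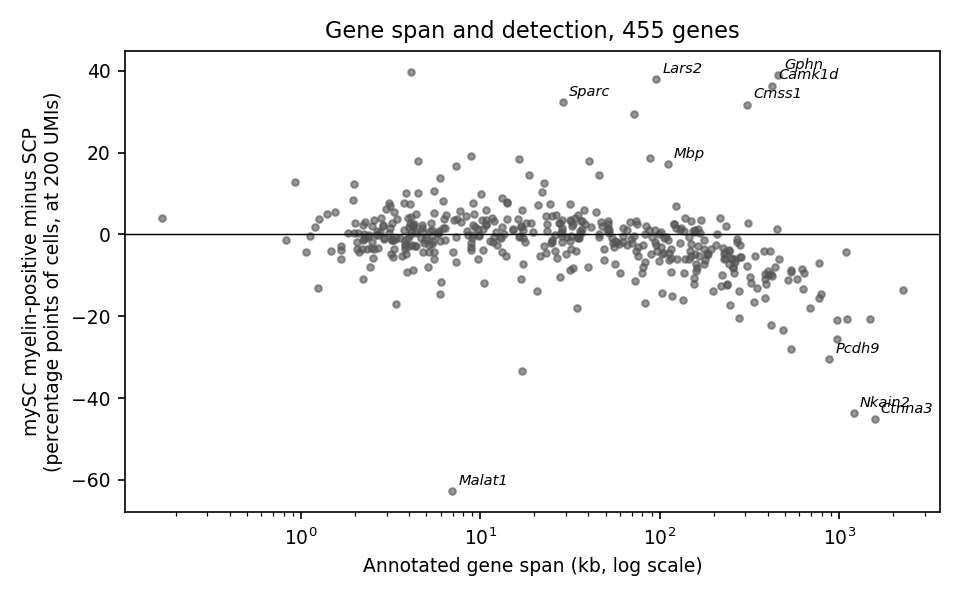
Each point is 1 of 455 genes, with its annotated span in kb on a log axis against the expected share of cells at 200 UMIs in myelin-positive mySC cells minus SCP, in percentage points. Most genes of 150 kb or more lie below 0, with Gphn, Camk1d and Cmss1 well above it and the short gene Malat1 lowest of all.

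Other gene groups were compared with SCP by the same measure, counting members with a mean expected share of at least 5%. Over all 469 such genes, 189 were higher and 280 lower, with a median difference of -1.11 percentage points. All 11 counted mitochondrially encoded genes were lower, with a median of -10.4 points, and the summed list was at 13512 ± 4358 CPM (SD, n = 5 libraries) against 26090 ± 3207 CPM, lower in 5 of 5 libraries. Among them mt-Atp6 was expected in 35.3% against 59.9%, mt-Co2 in 31.1% against 52.4% and mt-Co3 in 37.1% against 53.4%. Without the 6 transcripts above, the 11 genes were still lower, by a median of 5.47 points.

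The adhesion and channel list was chosen with earlier results of these data known, as genes that led SCP cells. Its direction against SCP was therefore set by that choice and is no test. The list was lower as a whole, at 2642 ± 2297 CPM against 10773 ± 3122 CPM and in 5 of 5 libraries. Its 5 counted members were all lower, among them the potassium channel gene Kcna1 at 3.3% against 17.7% and the ankyrin gene Ank3, which anchors channels, at 7.5% against 20.9%. Of the 11 counted immediate early and heat shock genes 9 were lower and 2 higher, with a median of -4.29 points against -1.11 for all genes. The summed list was at 7244 ± 3957 CPM against 12085 ± 3072 CPM and lower in 4 of 5 libraries, with Fos at 12.8% against 29.8%. The 2 higher members were the chaperone genes Hspa8 (13.2% against 5.5%) and Hsp90ab1 (17.5% against 12.3%).

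Lipid synthesis genes, which supply cholesterol and fatty acids for the myelin membrane, overlapped by library between the 2 clusters. The cholesterol list was at 2298 ± 975 CPM in the myelin-positive cells and 2709 ± 359 CPM in SCP, with Hmgcs1, an early enzyme of the pathway, in 22 of the 78 cells. The fatty acid and myelin lipid list was at 5698 ± 3056 CPM against 4377 ± 680 CPM. The desaturase gene Scd2 was its most often carried member, in 39 cells, then Ugt8a, which makes galactolipids of myelin, in 23, and the ceramide synthase gene Cers2 in 16. Scd2 was found in 17, 14 and 0 cells of the SD libraries and 3 and 5 of the HFD libraries. Antigen presentation genes were sparse, with B2m in 23 cells, H2-D1 in 4 and H2-K1 in 3. Of 66 counted ribosomal protein genes 19 were higher and 47 lower, with a median of -1.24 points, close to that of all genes, and the nuclear-encoded respiratory chain list was at 14143 ± 2996 CPM against 13262 ± 4527 CPM.

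Some myelin-positive cells went against the group. The deepest, from SD replicate 1, had 5639 UMIs, only 0.887% of them myelin, 210 of Malat1, 61 of Apoe, 39 of the adhesion gene Cadm2 and 9 of Scn7a, the last a channel gene of non-myelinating Schwann cells. Another of SD replicate 1, with 911 UMIs, carried 43 myelin UMIs and 9 UMIs of the macrophage list. The cells with the least myelin had 2 UMIs of it among 723 and 300 UMIs, both in SD replicate 2, and the cell with the highest myelin share had 14.5% of only 138 UMIs, in HFD replicate 2.

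The diets were compared over libraries. mySC cells were 31.3%, 44.4% and 17.5% of the cells of SD replicates 1, 2 and 3 and 14.04% and 15.1% of those of HFD replicates 1 and 2. The SD libraries all lay above the HFD libraries, with means of 31.1% ± 13.5 (SD, n = 3) and 14.6% ± 0.749 (SD, n = 2). The difference of -16.5 percentage points had p = 0.2 in a 2-sided exact permutation test (0.2 after Benjamini-Hochberg adjustment over 4 library measures), where 3 against 2 libraries cannot go below 0.1. It was -23.8 points within project 1 and -2.41 within project 2, and -9.81 without SD replicate 2. The myelin-positive cells alone were 26.3%, 43.2% and 17.5% of the cells on SD and 5.26% and 11.3% on HFD (exact permutation p = 0.2). Shares of recovered cells depend on digestion and bead capture, whose part was not tested.

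Over all mySC cells, the myelin level by diet moved with the cells of another type. The depth difference was smaller without those cells but kept its sign. Median UMIs per mySC cell were 880, 429 and 301 on SD and 6340.5 and 565 on HFD, which overlapped, and the difference of 2916 (exact permutation p = 0.2) was 28.3 without HFD replicate 1. Within the projects it was 5686 and 264. In the myelin-positive cells the depth difference was 799 (exact permutation p = 0.2), and within the projects 1451.5 and 245. The 22 myelin genes were at 31679, 58249 and 70922 CPM on SD and at 8423 and 9252 CPM on HFD. That difference of -44779 CPM (exact permutation p = 0.2) turned to 16363 CPM (p = 0.8) in the myelin-positive cells, where the libraries were at 52593, 59055 and 70922 CPM on SD and 112216 and 42224 CPM on HFD. The groups then overlapped, and the 2 projects had opposite signs, 56392 and -28698 CPM. A myelin UMI was found in 92%, 97.2% and 100% of mySC cells on SD and 75.0% and 87.5% on HFD, a difference of -15.2 points (exact permutation p = 0.1, adjusted 0.2), within the projects -19.6 and -12.5. It was -8.91 points without HFD replicate 1 and 0 without the cells of another type, as every myelin-positive cell has a myelin UMI. Counting cells with at least 2 myelin UMIs it was -32.6 points, and as a share expected at 200 UMIs per cell -39.6.

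Summed over all 92 cells, the genes called higher on HFD had nearly all of their HFD UMIs in the cells of another type. edgeR's quasi-likelihood test with Benjamini-Hochberg adjustment called 52 of 656 genes tested (7.93%) at an adjusted p under 0.05, 45 higher on HFD (6.86%) and 7 lower (1.07%). The median log2 difference over all 656 genes was 0.42, and 0.61 with RLE scaling. Among the 45 were 5 genes of the neutrophil list and 4 of the macrophage list. Of those 5 neutrophil genes 4 had no UMI on SD and so passed the filter on low counts through the HFD libraries alone, which makes these counts a description. Each of the 45 had at least 93.5% of its HFD UMIs in the cells of another type. Of the 45, 24 had over 50% in the 3 cells with neutrophil genes, and 15 had no UMI on SD. All 15 passed the filter on low counts through the HFD libraries alone, so their calls are likewise a description. Only 1 of the 45 was also tested in the fit of myelin-positive cells. Of the genes tested, 22 of 510 were called without SD replicate 2 and 99 of 395 without SD replicate 1.

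S100a9 had 1121 and 1015 UMIs in the mySC cells of HFD replicates 1 and 2 and none in the 3 SD libraries. All of them lay in 3 cells. The factors below are for genes with no UMI on SD, whose HFD UMIs lay in 3 to 5 cells each. Such factors bound counting error over pooled UMIs only, not the spread between cells or libraries. Pooled over libraries S100a9 was at least 439-fold higher on HFD, against a floor of 3 counts over all SD cells, and S100a8 at least 296-fold. The cytokine gene Il1b was at least 54.8-fold higher, with 267 UMIs in 5 cells, and the chemokine gene Cxcl2 at least 45.0-fold, with 219 UMIs in 5 cells. The neutrophil genes Retnlg (51.6-fold), Stfa2l1 (20.9-fold) and Slpi (12.9-fold) were each higher by at least those factors, as were Slc7a11, the cystine transporter (20.7-fold), Acod1, the itaconate enzyme (16.6-fold), and the lectin gene Clec4d (14.8-fold). Other called genes were Tmsb4x, at a log2 difference of 2.82 ± 0.81 (SE), and Lyz2, at 3.59 ± 1.09. Tmsb4x was at 0.72 ± 0.51 in the fit of myelin-positive cells (edgeR's quasi-likelihood test, adjusted p = 0.702). In the myelin-positive cells S100a9, S100a8, Il1b and Cxcl2 had no UMI.

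**Figure D5:**
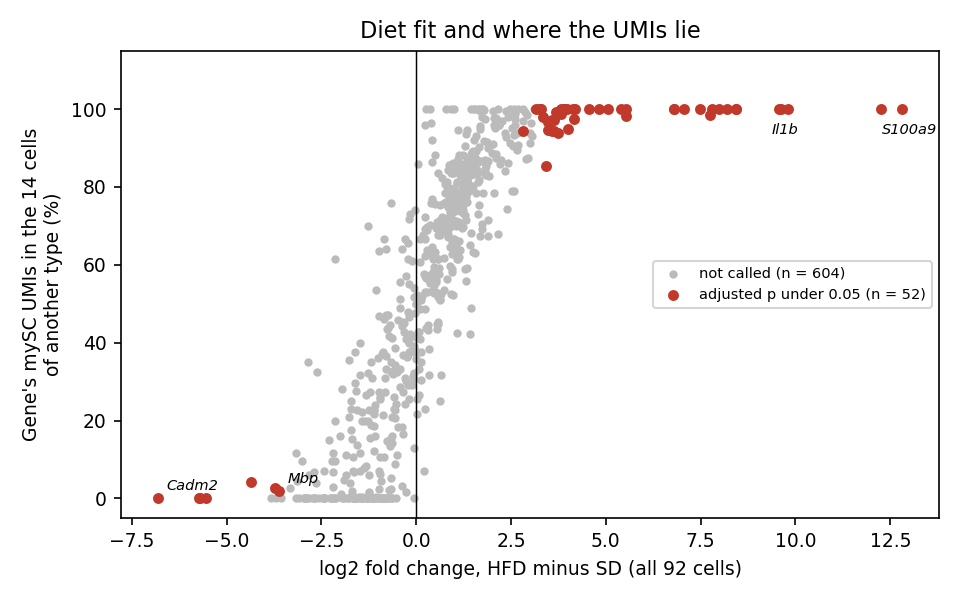
Each point is 1 of 656 genes tested over all 92 mySC cells, with its log2 difference between diets (HFD minus SD) against the percent of its mySC UMIs that lay in the 14 cells of another type, and the 52 called genes in red. Genes called higher lie at 85.3% or more and the 7 called lower, Mbp and Cadm2 among them, at the bottom.

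The 7 genes lower on HFD included Cadm2, Abca8a, Lgi4, Chpt1, Sgcd and Mbp. Of these, Cadm2, Abca8a and Lgi4 had no UMI on HFD. They passed the filter on low counts through the SD libraries alone, which makes their calls a description. Lgi4, a secreted protein that Schwann cells need for myelination, had 13, 2 and 1 UMIs in the SD libraries and none on HFD. Against a floor of 3 counts this was at least 8.66-fold lower over all cells, but at least 1.51-fold over the myelin-positive cells, which had 51469 UMIs on SD and 14594 on HFD. For Cadm2 the factors were 26.0 and 4.54, and for Abca8a, a lipid transporter, 10.3 and 1.80. Cadm2 was counted in 5 cells, and 81.3% of its UMIs lay in 1. Without HFD replicate 1 none of the 7 was called, and without HFD replicate 2 only Mbp was. Sgcd, a sarcoglycan gene, was found in 14 SD and 2 HFD cells and Chpt1, an enzyme of phosphatidylcholine synthesis, in 12 and 1.

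Mbp had 144, 163 and 117 UMIs in the mySC cells of SD replicates 1, 2 and 3 and 19 and 46 in HFD replicates 1 and 2. Over all 92 cells it was lower on HFD by a log2 difference of -3.62 ± 0.99 (SE; edgeR's quasi-likelihood test, adjusted p = 0.00787). In the myelin-positive cells the difference was -1.97 ± 0.90 with an adjusted p of 0.601. Mbp was then at 5490, 7304 and 37718 CPM on SD and 2587 and 4599 CPM on HFD. The value of HFD replicate 1 rests on 13 UMIs in 3 cells, and without the cell rich in Mbp SD replicate 3 was at 7870 CPM. Fitted without that cell and the cell rich in Cadm2, the difference was -2.62 over all mySC cells (adjusted p = 0.129) and -0.95 over the myelin-positive ones (adjusted p = 0.963). Over all mySC cells Mbp also missed the threshold without HFD replicate 1 (edgeR's quasi-likelihood test, adjusted p = 0.140) or SD replicate 3 (0.143). By cells, Mbp was found in 55 of 63 myelin-positive cells on SD and 14 of 15 on HFD.

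Pmp22 and Prx kept neither sign nor size. Pmp22 went from a log2 difference of -1.06 over all cells to 1.03 in the myelin-positive cells and Prx from -1.60 to 0.28, neither of them past the threshold (edgeR's quasi-likelihood test, adjusted p 0.369 to 0.778). In the myelin-positive cells Pmp22 was at 11133, 14114 and 5480 CPM on SD and 31834 and 9406 CPM on HFD, and the high value rests on 3 cells, 1 of which held 90 of their 160 Pmp22 UMIs. The diets overlapped. Pmp22 was found in 53 of 63 myelin-positive cells on SD and 10 of 15 on HFD.

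Among the myelin-positive cells no gene passed the test by diet. Of 83 genes tested, 0 (0%) were called by edgeR's quasi-likelihood test with Benjamini-Hochberg adjustment and 0 by DESeq2. Without SD replicate 3, 1 of 155 genes tested was called, the phosphatase gene Ppp1cb, which was not among the 83. Of the 83, 4 had an unadjusted p under 0.05 in edgeR and 4 in DESeq2. In edgeR these were mt-Co2, with a log2 difference of -1.33 ± 0.41, mt-Cytb at -1.25 ± 0.42, mt-Co3 at -0.91 ± 0.33 and the brain-type creatine kinase gene Ckb at -1.36 ± 0.55, all lower on HFD with an adjusted p of 0.601. All 6 tested mitochondrially encoded genes had negative differences (median -0.78, against 0.07 for all 83 genes), while the 10 tested over all mySC cells had positive ones (median 0.56, against 0.42). Malat1 was at -2.08 ± 0.90 (adjusted p = 0.601), with 35.2% of its UMIs in 1 cell. On the positive side the lowest p-values belonged to the peroxiredoxin gene Prdx1 at 1.73 ± 0.72, the synuclein gene Sncg at 1.15 ± 0.50, Gatm, which makes the creatine precursor, at 0.65 ± 0.34, the cell cycle inhibitor gene Cdkn1a at 1.18 ± 0.63 and Dag1 at 1.35 ± 0.80, with adjusted p of 0.601 to 0.702 in edgeR's quasi-likelihood test.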

How the data were processed

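Per the submitters' processing notes, reads were processed with Cell Ranger 3.1.0 and build mm10. Cell filters and doublet treatment: not given in the sources used here. Mitochondrial UMIs reached at most 4.97% of a cell in the deposited percent column, and no doublet caller was run. The authors deposited raw UMI counts of 32285 genes in 364 cells with cluster names. Control cells of the cell table were taken as SD, since both sources name 2 diets and share HFD.

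The 92 members and all gene lists were chosen with earlier results of these data known. UMIs of mySC cells were summed per library (at least 3 cells). They were tested with edgeR 4.0.16 (TMM, filterByExpr, library sizes of kept genes, robust quasi-likelihood test, Benjamini-Hochberg at 0.05), with DESeq2 1.42.0 as an alternative. The fits were also run on simulated counts. These had a fixed dispersion and no single cell that dominated a gene, so they do not match these data in that respect. CPM in the text are raw UMIs scaled to 1000000 UMIs. Library measures had exact permutation tests. Shares at 200 UMIs were computed from the hypergeometric distribution. Gene spans came from GENCODE. Named genes were myelin markers, the most often carried members of each list, the 15 genes carried by most cells, the 10 largest differences from SCP per direction, and up to 10 called genes per direction by diet, or the 5 lowest p; some of these are not reported here.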

Additional observations from a re-analysis of the deposited data

How the results depend on the processing

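The count of 52 of 656 genes tested by diet over all mySC cells was 66 of 656 with RLE scaling, 38 of 656 with DESeq2 and 39 of 656 with project number as a term. It was 42 of 571 without the cells richest in Mbp and Cadm2, and 8 of 10497 with no filter on low counts. Without cells of another type, which leaves only the myelin-positive cells, it was 0 of 83. Only 1 of the 45 genes called higher and 1 of the 7 called lower were among these 83. With only cells under 2000 UMIs, HFD replicate 1 had too few cells, and the median log2 difference over the 188 genes tested was 0.03. Leaving out 1 SD library gave from 22 of 510 genes tested (without SD replicate 2) to 99 of 395 (without SD replicate 1). Among myelin-positive cells, leaving out 1 SD library gave 0 to 1 gene, the 1 being Ppp1cb among 155 genes tested without SD replicate 3. Cadm2 missed the threshold with project number as a term (adjusted p = 0.0763 in edgeR's quasi-likelihood test) and Mbp without HFD replicate 1 (0.140) or SD replicate 3 (0.143). The myelin level by diet reversed to 16363 CPM without cells of another type, and Pmp22 (1.03) and Prx (0.28) did so too. The difference in Malat1 between mySC and SCP, -58.3 percentage points, was -45.7 at 400 UMIs per cell. The 14 cells of another type were also 14 with limits of 3 and 10 UMIs. The cause of these shifts was not tested, beyond the cells or libraries removed.

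With replicate number as a block, over numbers 1 and 2, 21 of 554 genes tested were called over all mySC cells. Over the myelin-positive cells 1 of 155 was called, Ppp1cb. Same-numbered libraries did not deviate together from their diet means (r = -0.095 and -0.054 over 656 genes). With only 2 HFD libraries, their deviations are equal and opposite. These correlations therefore cannot decide whether the numbers pair libraries, and the labels do not say. The blocked library differences kept their signs: -23.3 points in mySC share, 2798 in median UMIs, -36126 CPM in myelin level and -13.4 points in cells with a myelin UMI. Depth limits every share of cells in the shallow libraries.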
